A study of Mus musculus with 8 samples.

Results

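Malat1, Neat1 and Meg3 are long noncoding RNAs that stay largely in the nucleus, and the data described here are their counts in single cells of mouse islets. They were chosen by name, as 3 of the 19945 genes in the count table, and each had UMIs in every class of cells of both libraries apart from Meg3 in the 9 B cells of the FAKi library. Islets were isolated by duct infusion of collagenase and handpicked from wild-type mice, aged 6 to 12 weeks when the experiment began, 10 days after the end of 3 weeks of treatment by oral gavage. The FAKi-treated mice had received PF-562271, a small-molecule inhibitor of focal adhesion kinase, at 50 mg per kg in 2 doses per day. The vehicle-treated mice had received the solvent alone, and each group pooled the islets of 5 mice.

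Each treatment gave 1 droplet library, so that its 4 GEO samples, which are 4 sequencing lanes, are not biological replicates. No test between treatments was therefore possible, and differences are given as ratios with 95% intervals that cover counting error only. The vehicle library held 3776 cells with 59514118 unique molecular identifiers (UMIs, each standing for 1 captured RNA molecule) and a median of 10102 UMIs per cell. The FAKi library held 3183 cells with 57836783 UMIs and a median of 13688. The labels put the cells that went into sequencing at 8832 for vehicle and 8437 for FAKi. The lowest number of detected genes in a cell was 201 and the highest mitochondrial share with vehicle was 7.99% of UMIs. There were 4 cell barcodes that occurred in both libraries.

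A nuclear RNA is often used to judge a droplet. An intact cell carries both its nucleus and its cytoplasm, a bare nucleus carries little cytoplasmic RNA, and a droplet of leaked RNA carries little nuclear RNA. Malat1 gathers in nuclear speckles, the bodies where splicing factors are stored. Neat1 is the RNA around which paraspeckles are built, and its long isoform is the one that forms their scaffold. Meg3 is an imprinted RNA expressed from the maternal copy of the Dlk1-Dio3 locus, and it is known to be expressed in the islet.

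Malat1 (ENSMUSG00000092341.3) lies on the minus strand of chr19:5795690-5802672 in the mouse genome build GRCm38, which is mm10, and Neat1 (ENSMUSG00000092274.3) lies on the same strand at chr19:5824708-5845478. The gap between these neighbours is 22035 bases. Meg3 (ENSMUSG00000021268.17) lies on the plus strand of chr12:109541001-109571726. GENCODE vM21 lists 4 transcripts for Malat1, 4 for Neat1 and 11 for Meg3. Other annotated genes overlap them, 2 at Malat1, 3 at Neat1 and 5 at Meg3, and 0 of these were in the count table. The counting of strand was not given in the sources used here.

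The libraries were primed with oligo-dT, which pairs with the poly(A) tail of an RNA and can also pair with A-rich stretches inside it, and the counts do not show where a member was primed. The ends of Malat1 and of long Neat1 are known to be cut by RNase P and protected by a triple helix, not a poly(A) tail, while short Neat1 and Meg3 are polyadenylated. The 90 bases that close each are printed below from the GENCODE vM21 transcripts, 5′ to 3′, with capitals for the A-rich end or for the AATAAA polyadenylation signal.
Malat1-201, chr19:5795982-5796071, minus strand: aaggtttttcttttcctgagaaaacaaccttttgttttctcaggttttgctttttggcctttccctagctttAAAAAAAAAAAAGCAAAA
Neat1-201 (long), chr19:5824708-5824797, minus strand: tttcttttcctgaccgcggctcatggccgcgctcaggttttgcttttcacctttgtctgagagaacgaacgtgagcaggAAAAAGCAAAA
Neat1-202 (short), chr19:5842307-5842396, minus strand: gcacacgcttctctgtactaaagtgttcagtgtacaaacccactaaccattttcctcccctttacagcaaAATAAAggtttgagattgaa
Meg3-207, chr12:109571632-109571721, plus strand: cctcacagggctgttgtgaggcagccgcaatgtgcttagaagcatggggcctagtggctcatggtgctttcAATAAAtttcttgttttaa

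Malat1 and long Neat1 shared the letters AAAAAGCAAAA at these ends. On the sense strand this motif stood in the last 90 bases of 61 of 139864 annotated mouse transcripts (0.0436%), whereas AATAAA stood in 39806 (28.5%). The AATAAA of Neat1-202 ended 14 bases before the end of the transcript, and that of Meg3-207 ended 13 bases before it. In Malat1-201 the printed window ends 292 bases before the annotated transcript does. A match of letters is a description of the sequence, and the counts do not separate the isoforms.

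Across the annotated classes, Malat1 was highest in pericytes, the contractile cells that wrap capillaries, and lowest in the acinar clusters, the cells that make digestive enzymes. In pericytes it made up 43684 UMIs per 1000000 UMIs (CPM, 95% interval 43217 to 44154) with vehicle and 49695 CPM with FAKi, which is 4.37% and 4.97% of all UMIs. The δ-cells followed with 23699 and 26768 CPM. Values between 17427 and 21003 CPM were found in ductal cells, fibroblasts, α-cells and endothelial cells of both libraries, in no fixed order, since the vehicle and FAKi values of neighbours overlapped. Macrophages held 14091 and 10334 CPM and T cells 16296 and 5844 CPM.

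β-cells, which make insulin, held 7776 CPM of Malat1 with vehicle and 7442 CPM with FAKi, below the islet α-cells at 20226 and 19088 CPM. Acinar cluster 1 held 3137 and 1305 CPM, and acinar cluster 2 held 568 and 801 CPM. The mean of the libraries was 68.2-fold higher in pericytes than in acinar cluster 2, and 5 of 10 neighbouring pairs in the order of 11 classes overlapped.

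Neat1 had another order. Ductal cells, which line the pancreatic ducts, held the most, with 1783 CPM (1750 to 1817) with vehicle and 1104 CPM (1060 to 1149) with FAKi. Macrophages came next with 865 and 679 CPM. Fibroblasts, T cells, β-cells, δ-cells, endothelial cells and pericytes lay between 185 and 372 CPM. Each neighbouring pair among them overlapped between the libraries, while fibroblasts (351 and 294 CPM) lay above endothelial cells (288 and 210 CPM) and pericytes (280 and 185 CPM). α-cells were low at 118 and 153 CPM, next to acinar cluster 1 at 139 and 137 CPM and above acinar cluster 2 at 90.02 and 94.2 CPM. The span from the highest to the lowest class was 15.7-fold, with 6 of 10 neighbouring pairs overlapping.

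Meg3 was highest in the endocrine cells, at 2491 and 2625 CPM in α-cells, which make glucagon, at 2309 and 2413 CPM in δ-cells, which make somatostatin, and at 844 and 819 CPM in β-cells. The vehicle and FAKi values of these 3 classes did not overlap one another. Fibroblasts held 487 and 513 CPM and pericytes 649 and 294 CPM. Endothelial cells held 109 and 147 CPM and acinar cluster 2 held 48.1 and 61.0 CPM, the lowest value, 46.9-fold below α-cells in the mean of the libraries.

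**Figure D1:**
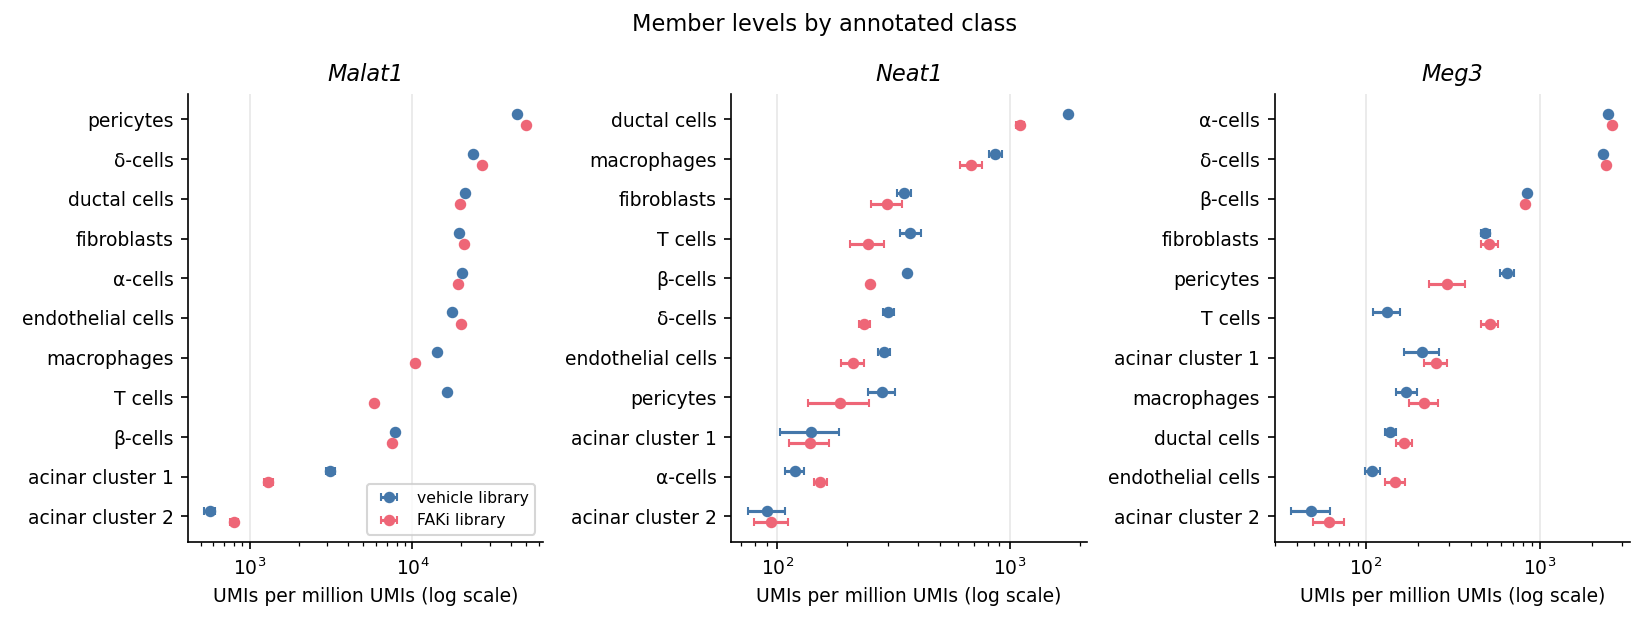
Level of each member in CPM (x axis, log scale) in 11 annotated classes (y axis, ordered by the mean of the libraries), with points for the vehicle and FAKi library and bars for the 95% Poisson interval. Pericytes lead for Malat1, ductal cells for Neat1, and α-cells and δ-cells for Meg3, and acinar cluster 2 is lowest for each.

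The class names were checked against their markers. The insulin, glucagon and somatostatin genes, and the markers of acinar, ductal, endothelial and immune cells, were highest in the class named for them, and Hhex (highest in ductal cells) was the exception among the endocrine markers. The δ class also held the highest Ppy, the gene of pancreatic polypeptide, at 142885 CPM, so its values describe δ-cells together with cells of that hormone.

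Immune cells are not known for Meg3 and were taken as the cells that should lack it. Of 410 T cells, B cells and macrophages in the vehicle library (median 4398 UMIs), 10.98% had a Meg3 UMI, and of 92 with FAKi (median 7733 UMIs) 31.5% did. Most of these UMIs sat in the immune cells with 4000 or more detected genes, at 484 and 556 CPM, against 19.3 and 79.7 CPM in the others. When every cell was thinned to 1000 UMIs, Meg3 was found in 86.4% and 87.1% of α-cells, 52.6% and 52.9% of β-cells, and 3.81% and 10.98% of immune cells. Before thinning the shares were 98.9% and 99.1% of α-cells (median depth 13126 and 13262 UMIs) and 95.8% and 96.3% of β-cells (30792 and 30428 UMIs). Acinar cluster 2, at thinned shares of 4.65% and 6.14% (36.0% and 41.2% before thinning), could not be told apart from the immune cells at this depth, since the intervals (1.28 to 11.5 and 2.50 to 12.2) overlapped those of the immune cells (2.15 to 6.20 and 5.14 to 19.8). Acinar cluster 1 stood at 5.93% (2.59 to 11.3) with vehicle and 18.3% (13.3 to 24.2) with FAKi. These shares were above the immune cells but with overlapping intervals, and they were 9.32% and 22.2% before thinning. The immune cells are not a clean reference here. With FAKi, 365 of their 405 Meg3 UMIs lay in 17 cells with 4000 or more detected genes. T cells made up 6 of the 9 thinned FAKi immune cells with Meg3, and deep FAKi T cells held β-cell markers, as given below. The shares were not taken without those cells.

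For each member, the 5 genes with the most similar pattern were listed over 23 groups, which are the classes of each library with at least 20 cells. These groups share libraries and depth, so the correlations of log2(CPM + 1) are descriptions. The genes nearest to Malat1 were Faap20 (r = 0.971), Pias1, Morf4l1, Rlf and Jund (r = 0.962), and 4 of them were highest in pericytes too. Nearest to Neat1 were Ormdl2 (r = 0.873), Zbtb7b, Tmem176b, Rab20 and Trib1 (r = 0.833), each highest in ductal cells. These lists depended on the pseudocount, and with 10 CPM in place of 1 CPM 2 of the 5 genes stayed nearest to Malat1, and 3 of 5 to Neat1 and to Meg3.

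Nearest to Meg3 were Rian (r = 0.956), Isl1 (r = 0.953), Nap1l5, Mirg and Gnao1 (r = 0.941). Rian and Mirg are its neighbours in the Dlk1-Dio3 locus, and Isl1 encodes a transcription factor of islet endocrine cells. Rian stood at 265 and 277 CPM in δ-cells, 250 and 215 CPM in α-cells, 144 and 143 CPM in β-cells, and 15.5 and 17.2 CPM in acinar cluster 2. Among the members themselves r was 0.475 for Malat1 with Neat1, 0.451 for Malat1 with Meg3, and -0.11 for Neat1 with Meg3.

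Cells with few detected genes were then set against the others, at a limit of 1000 detected genes. There were 448 such shallow cells with vehicle and 546 with FAKi. A Malat1 UMI was found in 57.8% and 56.8% of the shallow cells and in 99.4% and 99.5% of the deep cells. After thinning to 1000 UMIs, which left out 87 and 149 shallow cells, the shares were 49.3% and 46.6% of shallow cells and 96.9% and 95.4% of deep cells. At equal depth, then, fewer shallow cells held Malat1, in both libraries.

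Neat1 was found in 29.8% of deep and 9.42% of shallow thinned cells with vehicle, and in 20.4% and 5.79% with FAKi. Meg3 was found in 35.8% and 9.42%, and in 52.4% and 18.1%. Without thinning, the deep and shallow shares were 77.2% and 14.96% for Neat1 with vehicle and 72.4% and 8.24% with FAKi. For Meg3 they were 61.1% and 15.4%, and 83.6% and 24.0%.

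**Figure D2:**
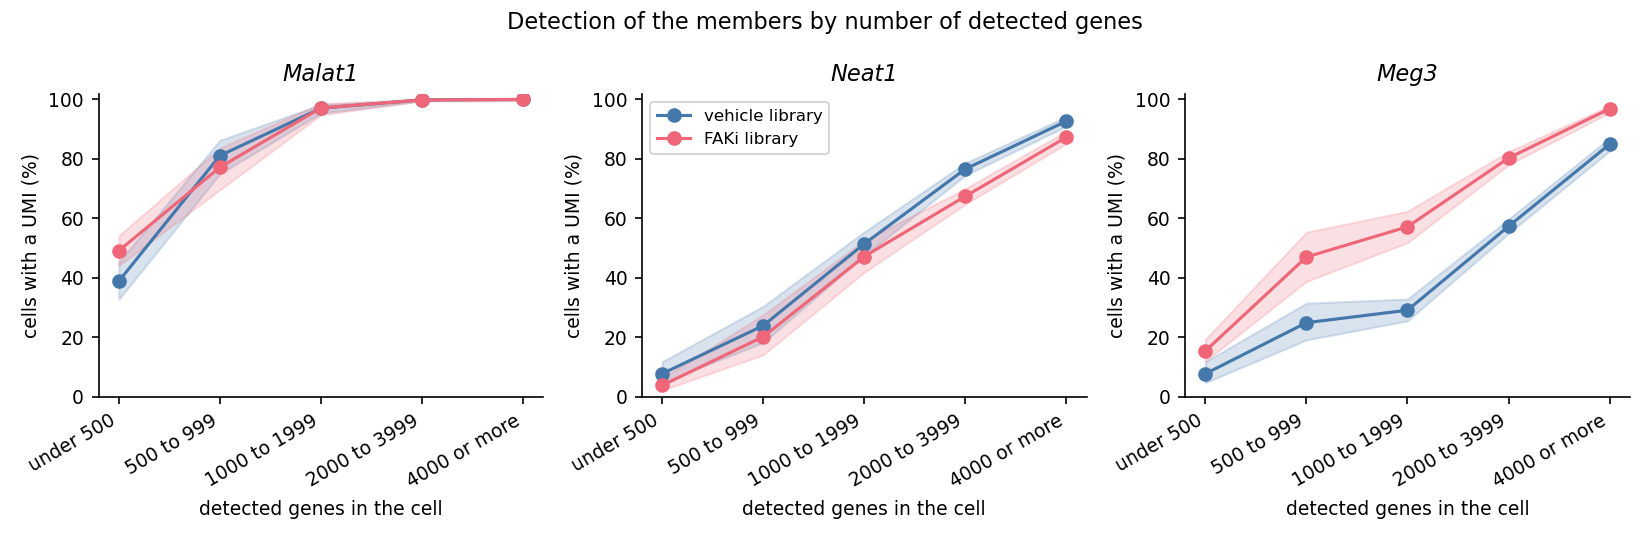
Share of cells with at least 1 UMI of each member (y axis, percent) in 5 bins of the number of detected genes (x axis), with a line for each library and a band for the 95% Clopper-Pearson interval, before thinning. Malat1 rises from 38.9% of vehicle cells and 49.1% of FAKi cells under 500 genes to 100% of cells with 4000 genes or more, while Neat1 starts from 7.69% and 3.78%.

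As a level, the pooled Malat1 of shallow cells was 0.642-fold that of deep cells in the vehicle library (0.628 to 0.656), 8379 against 13053 CPM. In the FAKi library it was 0.160-fold (0.153 to 0.167), 1851 against 11560 CPM. Of all genes tested, 74.1% were lower past 1.5-fold in the shallow vehicle cells and 78.8% in the shallow FAKi cells, so a low value in shallow cells was common. In the other direction 4.46% and 2.78% of genes were higher. All 3 members were lower past that fold in both libraries. Neat1 stood at 0.283 and 0.326 and Meg3 at 0.349 and 0.227.

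The vehicle value of Malat1 turned under other choices of cells and of the limit. Without the acinar clusters, Malat1 in shallow vehicle cells was 1.48 times its level in deep ones, and with a limit of 2000 detected genes it was 1.23 times. Outside the acinar clusters lay 234 of the 448 shallow vehicle cells and 184 of the 546 shallow FAKi cells. In the FAKi library the ratio stayed below 1, at 0.427 without them and at 0.706 with the limit of 2000 detected genes, which is no longer past 1.5-fold. Nor was Malat1 with vehicle past it as a mean over cells (0.711) or after thinning (0.763), or Meg3 with vehicle without the acinar clusters (0.801).

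Shallow and deep cells were also compared within the classes with at least 20 cells on both sides. Neat1 was lower in shallow cells in 7 of 7 vehicle classes and 4 of 4 FAKi classes, and past 1.5-fold in 4 of each. With vehicle, its intervals in acinar cluster 2, endothelial cells, macrophages and B cells included 1. B cells, at 0.525 (0.208 to 1.11), were among those past the fold. The δ-cell ratios rested on 3 shallow Neat1 UMIs with vehicle and 2 with FAKi, and that of FAKi endothelial cells on 3. Malat1 was lower past 1.5-fold in 4 of 4 FAKi classes. In the vehicle library it was lower in 3 and higher in 4 of 7 classes, with δ-cells at 2.29-fold and T cells at 1.56-fold past the limit upwards and acinar cluster 2 at 0.346 past it downwards. Over all genes, the share lower past 1.5-fold with vehicle was 3.99% in acinar cluster 2, 17.6% in B cells, 25.4% in T cells, 31.2% in macrophages, 32.2% in endothelial cells, 33.4% in δ-cells and 62.2% in β-cells. The share higher past that fold was 8.7%, 12%, 16.8%, 18.1%, 17.4%, 25.1% and 9.35% in the same order. With FAKi the lower share was 16.7% in acinar cluster 2, 31.3% in endothelial cells, 37.9% in β-cells and 50.1% in δ-cells. The higher share with FAKi was 10%, 9.78%, 20.5% and 13.7% in that order. Meg3 was lower in 5 of 7 vehicle classes, past the fold in 4, and higher past it in δ-cells, at 1.94 (1.66 to 2.24). Of those 4, macrophages and T cells rested on 2 shallow Meg3 UMIs each and B cells on 1. The intervals in macrophages (0.0441 to 1.34) and B cells (0.00466 to 1.08) included 1. In δ-cells, 7 cells held 174 of the 182 shallow Meg3 UMIs. With FAKi it was lower in 2 of 4 classes, past the fold in 1, and higher past it in acinar cluster 2, at 1.70 (1.10 to 2.62), and in endothelial cells, at 1.64 (0.776 to 3.08).

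Shallow FAKi δ-cells held 849 CPM of Malat1 against 27019 CPM in deep ones, a ratio of 0.0314, whereas shallow vehicle δ-cells held 53568 against 23434 CPM. The shallow β-cells differed in the same sense, at 1.27 with vehicle and 0.324 with FAKi. The typical shallow β-cell went the other way, with a median of 118 CPM with vehicle and 1424 CPM with FAKi. A Malat1 UMI was found in 51.0% and 69.4% of shallow β-cells and in 31.3% and 39.5% of shallow δ-cells. In deep cells the libraries were close, at 7768 and 7459 CPM in β-cells.

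A pooled level hid a split among the shallow cells. No Malat1 UMI was found in 189 of 448 shallow vehicle cells (42.2%) and in 236 of 546 shallow FAKi cells (43.2%). At the other end, Malat1 was 1% or more of the UMIs in 97 vehicle cells (21.7%, 17.9 to 25.8) and in 26 FAKi cells (4.76%, 3.13 to 6.90). Without the acinar clusters these counts were 94 of 234 (40.2%) and 23 of 184 (12.5%).

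By class, 26 of 34 shallow vehicle T cells, 17 of 26 B cells and 17 of 40 endothelial cells held 1% or more Malat1, next to 12 of 49 β-cells, 7 of 32 δ-cells and 4 of 24 macrophages. In the FAKi library this was so for 10 of 38 endothelial cells, 1 of 72 β-cells, 0 of 38 δ-cells and 0 of 15 macrophages. The counts of 0 allow shares of up to 9.25% and 21.8% by the exact binomial interval. Shallow acinar cells rarely held that much, with 3 of 157 and 3 of 284 in acinar cluster 1 and none in the 57 and 78 of acinar cluster 2.

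**Figure D3:**
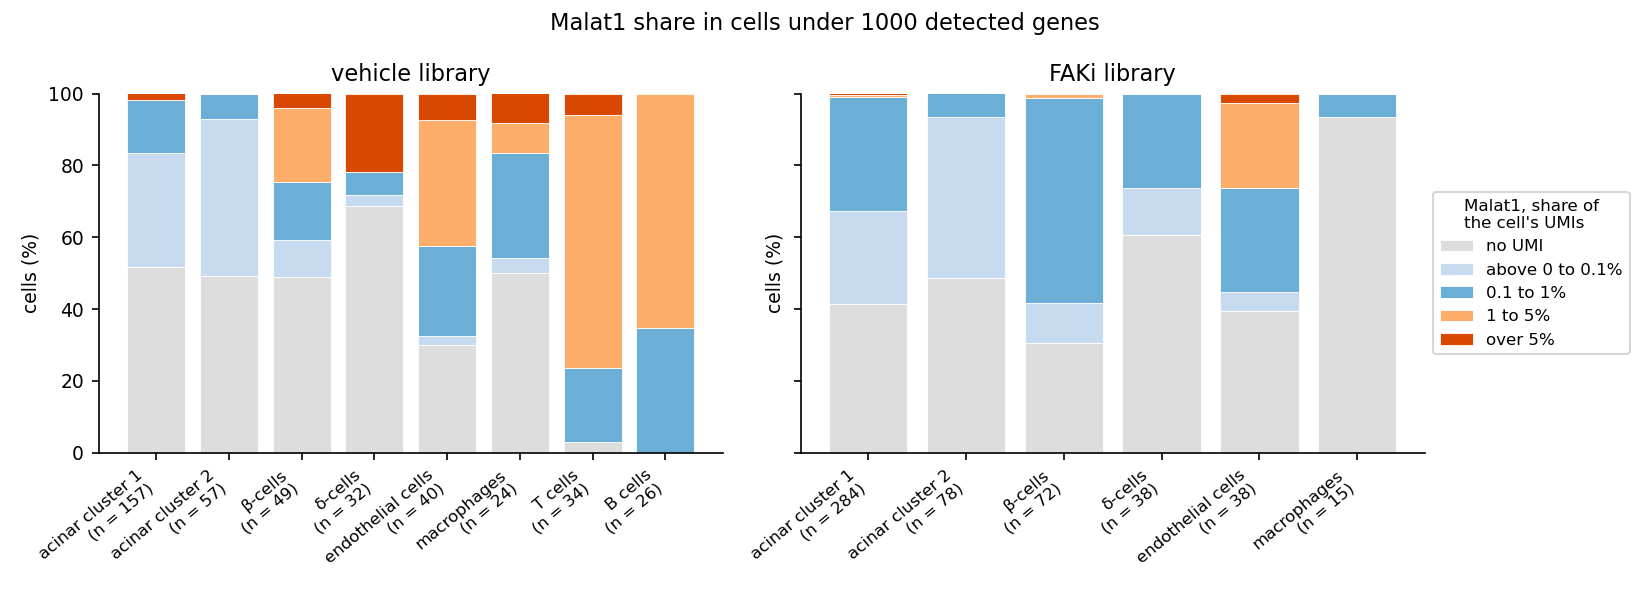
Stacked bars of the cells under 1000 detected genes by the share of their UMIs that is Malat1 (y axis, percent of cells), for the classes with at least 15 such cells (x axis, number of cells in brackets), vehicle library on the left and FAKi library on the right. Malat1-rich cells fill most of the vehicle T-cell and B-cell bars, and 22 of 32 vehicle δ-cells have no Malat1 UMI while 7 hold over 5%.

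Pooled Neat1 and Meg3 were higher in the shallow cells with 1% or more Malat1, from a minority of those cells. Neat1 stood at 423 CPM in them and 90.1 CPM in the other shallow cells of the vehicle library, and at 1175 and 50.7 CPM with FAKi, where 1 cell of acinar cluster 1 held 36 of the 47 UMIs. Meg3 stood at 1528 and 96.8 CPM, and at 1300 and 212 CPM. Of the 97 Malat1-rich vehicle cells, 29.9% had a Neat1 UMI and 23.7% a Meg3 UMI, and 174 of their 235 Meg3 UMIs lay in 7 δ-cells. Within the vehicle classes with cells on both sides, Meg3 was higher in the Malat1-rich α-cells, β-cells, δ-cells and macrophages, and lower in those of the other 7 classes. In T cells, for example, Meg3 was 22.3 CPM in the Malat1-rich and 88.4 CPM in the other cells, from 1 UMI each. Ductal cells, fibroblasts, pericytes, macrophages and B cells also had only 0 or 1 Meg3 UMI on each side, so their directions rest on single UMIs. Since the split was made on Malat1, its own values there are a description, and the Neat1 and Meg3 values carry the different classes of the cells on either side. Cytosolic ribosomal protein transcripts showed that mix. Over all shallow vehicle cells they made up 14.9% of UMIs in the Malat1-rich and 5.57% in the others, but within the vehicle classes with cells on both sides they were lower in the Malat1-rich cells of every class except β-cells, as in T cells at 24.0% against 26.5%. In β-cells they were 3.39% against 2.13%.

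In the 7 Malat1-rich shallow δ-cells of the vehicle library Malat1 was 219871 CPM, up to 33.6% of the UMIs of 1 cell, and they held 99.4% of the Malat1 UMIs of the 32 cells. All 7 had Meg3, at 17533 CPM against 257 CPM in the 25 others. Ribosomal protein transcripts were 0.836% of their UMIs against 13.0% in the others. The δ-cell markers (Sst, Hhex and Rbp4) were 0.0302% against 18.6%, with 1 of the 3 markers at 0.

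The 12 Malat1-rich shallow β-cells of the vehicle library held Meg3 at 1933 CPM and the 37 others at 170 CPM. The β-cell markers (Ins1, Ins2, Iapp, Mafa, Nkx6-1 and Slc2a2) were at similar shares, 31.3% and 32.1%. The erythrocyte markers Hba-a1 and Hbb-bs, genes of hemoglobin, were 0.0248% of UMIs in the Malat1-rich cells and 38.3% in the others, ranging from 0 to 82.0% per cell. In the shallow FAKi β-cells they were 4.82%, and in the deep β-cells 0.00128% and 0.0004%. Their part in the difference between the libraries was not tested.

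**Figure D4:**
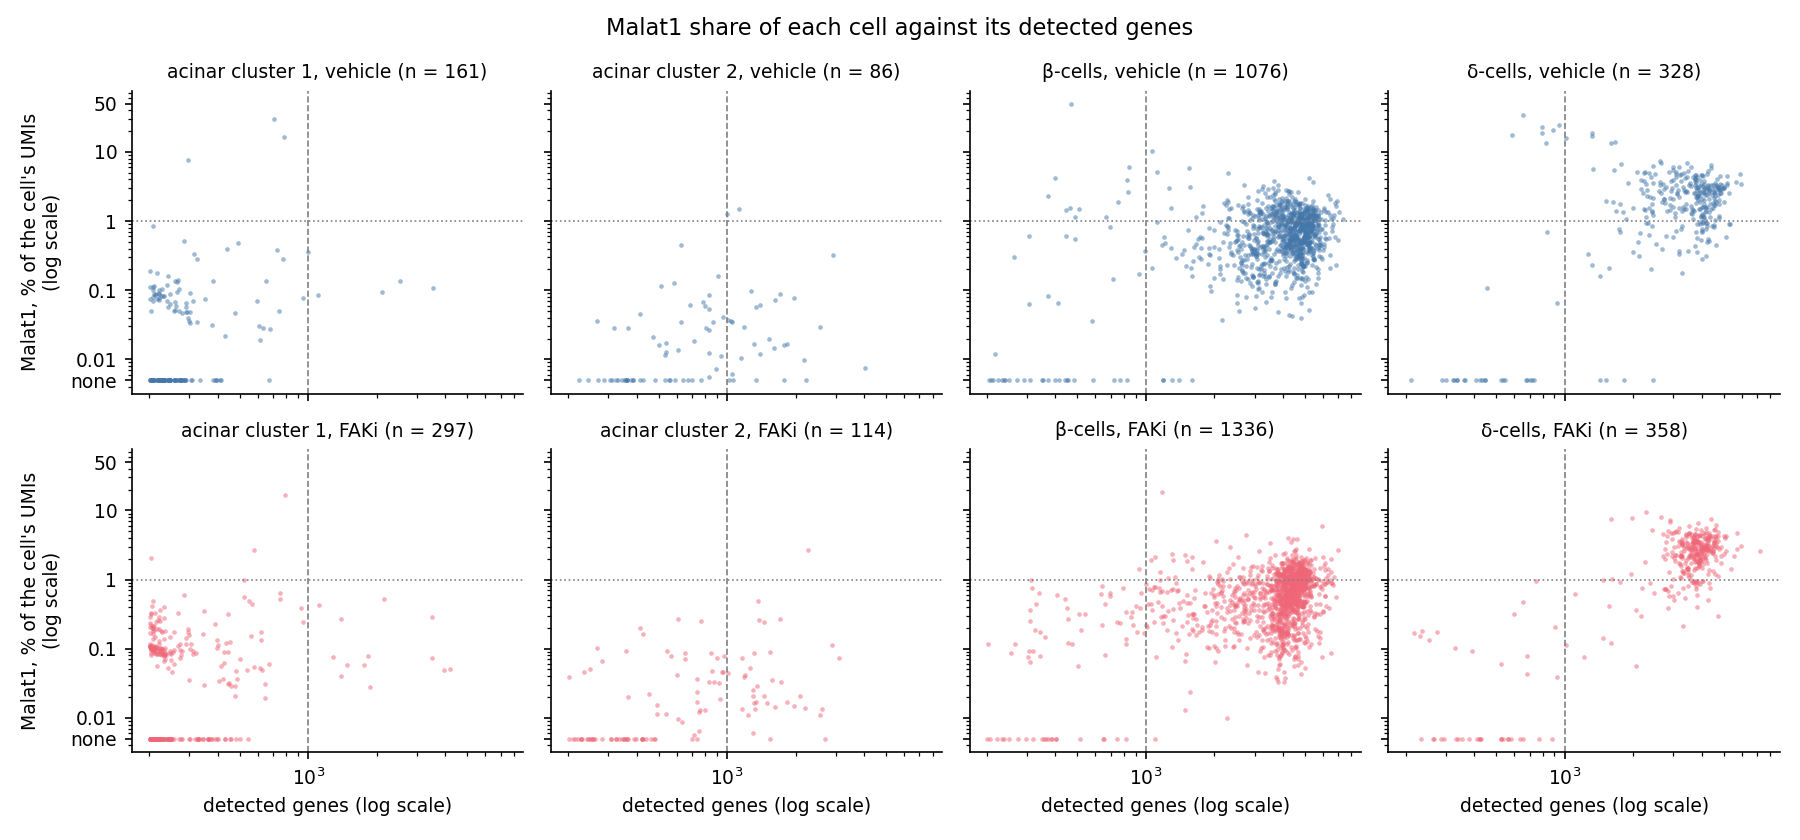
Malat1 as a percentage of each cell's UMIs (y axis, log scale, with cells lacking a UMI on the line "none") against the cell's detected genes (x axis, log scale) in the acinar clusters, β-cells and δ-cells, vehicle above and FAKi below. The dashed line marks 1000 detected genes and the dotted line 1% Malat1. A few vehicle δ-cells and 1 vehicle β-cell at 48.7% sit far above the rest on the left of the dashed line.

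The acinar clusters were compared because cluster 1 was the shallower one in both libraries. It held 161 vehicle and 297 FAKi cells with medians of 1480 and 1140 UMIs, against 86 and 114 cells with medians of 7931 and 7281 UMIs in cluster 2. Malat1 was 5.52-fold higher in cluster 1 in the vehicle library (5.03 to 6.07) and 1.63-fold higher with FAKi (1.496 to 1.78). Meg3 was 4.36-fold (3.07 to 6.21) and 4.13-fold (3.20 to 5.36) higher, and Neat1 1.54-fold and 1.46-fold. The Meg3 of cluster 1 with vehicle was 74 UMIs, of which 4 deep cells held 47, and its ratio was 2.09 without the 5 cells with the most Meg3 UMIs in each cluster. With FAKi, the Neat1 ratio was 4.22 in cells under 1000 detected genes alone and 4.93 after thinning. The Meg3 ratio was 2.71 in those shallow cells. Of the 63 Neat1 UMIs in shallow FAKi cells of cluster 1, 1 cell held 36. Without the 5 cells with the most Neat1 UMIs in each, the clusters held 64.1 and 32.8 CPM with FAKi. Malat1 in the shallow cells alone was 3678 against 243 CPM with vehicle and 1518 against 275 CPM with FAKi. Of all genes tested, 32.8% were higher past 1.5-fold with vehicle and 41.6% with FAKi, so the members' direction was shared by many genes. The lower share was 10.8% and 14.3%.

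Few cells held the Malat1 of cluster 1. In the vehicle library, 3 of the 157 shallow cells held 885 Malat1 UMIs, 86.2% of those in shallow cells of the cluster, with Malat1 at 7.56% to 29.9% of their UMIs. The acinar markers were 2.84% of the UMIs of these 3 cells and 25.3% in the other 154, which held Malat1 at 516 CPM. In the FAKi library 3 shallow cells held 336 UMIs (50.6%), and the other 281 stood at 756 CPM.

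Cluster 2 leaned on single cells as well. Of the 1207 Malat1 UMIs of the FAKi cells, 626 came from 1 cell, and 2 vehicle cells held 276 of 732. Without the 5 cells with the most Malat1 UMIs in each cluster, the ratios of cluster 1 to cluster 2 were 2.91 and 2.84. Those 5 cells were chosen by the value itself, so these ratios show how far a few cells set it.

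Other RNAs differed between the clusters as well, in either direction. β-cell markers were 15.7% and 25.2% of UMIs in acinar cluster 1, between 0.519% and 62.1% per cell, against 0.699% and 0.955% in acinar cluster 2. All of the acinar markers were detected in both clusters, at 23.1% and 19.6% in cluster 1 and 35.0% and 35.4% in cluster 2. Erythrocyte markers were 0.659% and 0.895% in cluster 1 and 0.00334% and 0.00159% in cluster 2. Mitochondrially encoded transcripts were 3.21-fold and 4.19-fold higher in cluster 1, and ribosomal protein transcripts were 0.946-fold and 0.947-fold. The part of depth and of β-cell RNA in the members' ratios was not tested.

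Between treatments, the members were compared in the 11 classes with at least 20 cells in both libraries. B cells, of which the FAKi library held 9, were left out. Malat1 was past 1.5-fold in 2 classes, both lower with FAKi, acinar cluster 1 at 0.416 (0.381 to 0.454) and T cells at 0.359 (0.345 to 0.372). Over all genes, the share lower past that fold was 8.38% in acinar cluster 1, 3.47% in acinar cluster 2, 3.1% in β-cells, 1.59% in α-cells, 2.55% in δ-cells, 4.83% in ductal cells, 6.66% in endothelial cells, 12.3% in fibroblasts and in macrophages, 7.89% in pericytes and 47.7% in T cells. The share higher was 11.6%, 8.21%, 1.21%, 3.18%, 1.33%, 3.34%, 2.53%, 4.25% in fibroblasts, 4.66% in macrophages, 5.34% and 8.66%, in the same order. In the other 9 classes Malat1 lay between 0.733 and 1.41.

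The acinar value turned without the 5 cells with the most Malat1 UMIs in each library, to 1.35-fold higher with FAKi. The T-cell value moved to 0.904 in cells under 4000 detected genes. Of the 28 FAKi T cells, 14 had 4000 or more detected genes, and β-cell markers were 49.3% of their UMIs while all 3 T-cell markers were at 0. In the vehicle library such cells were 11 of 168, with β-cell markers at 21.8% and 2 of 3 T-cell markers at 0.

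Neat1 was below 1 in 9 of 11 classes and past 1.5-fold in 3, ductal cells at 0.619 (0.592 to 0.647), pericytes at 0.661 (0.470 to 0.912) and T cells at 0.656 (0.536 to 0.799). Over all genes, 4.83%, 7.89% and 47.7% were lower past that fold in these classes. In β-cells Neat1 was 359 CPM with vehicle and 250 CPM with FAKi, 0.695-fold (0.677 to 0.714), just inside the limit that 3.1% of genes passed downwards. It was higher with FAKi in α-cells, at 1.29 (1.15 to 1.45), and its interval in both acinar clusters included 1. The T-cell ratio was above 1 in cells under 4000 detected genes, at 1.28. As a mean over cells, Neat1 in pericytes was 201 CPM with FAKi and 293 CPM with vehicle, no longer past 1.5-fold. With 1 library per treatment, a difference between these libraries cannot be told apart from one between treatments.

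Meg3 was above 1 in 9 of 11 classes, among them α-cells at 1.05, δ-cells at 1.04 and endothelial cells at 1.35 (1.14 to 1.59), and it was 0.970 in β-cells. In δ-cells the direction turned as a mean over cells, with 2399 CPM with FAKi against 2974 CPM with vehicle. After thinning it turned as well, with a mean of 2.39 against 2.91 UMIs. Meg3 was past 1.5-fold upwards in T cells, at 3.92 (3.18 to 4.85), where 8.66% of genes were, and downwards in pericytes, at 0.453 (0.349 to 0.580). In T cells under 4000 detected genes Meg3 was 22.4 CPM with vehicle and 68.5 CPM with FAKi, from 14 and 3 UMIs. In pericytes 4 cells in each library held most of the Meg3 UMIs. Without the 5 cells with the most Meg3 UMIs in each library, the ratio was 0.425 in pericytes and 15.5 in T cells, and it moved from 1.20 to 3.09 in acinar cluster 1. It then lay below 1 in macrophages (0.448, from 1.25), ductal cells (0.952) and fibroblasts (0.842).

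**Figure D5:**
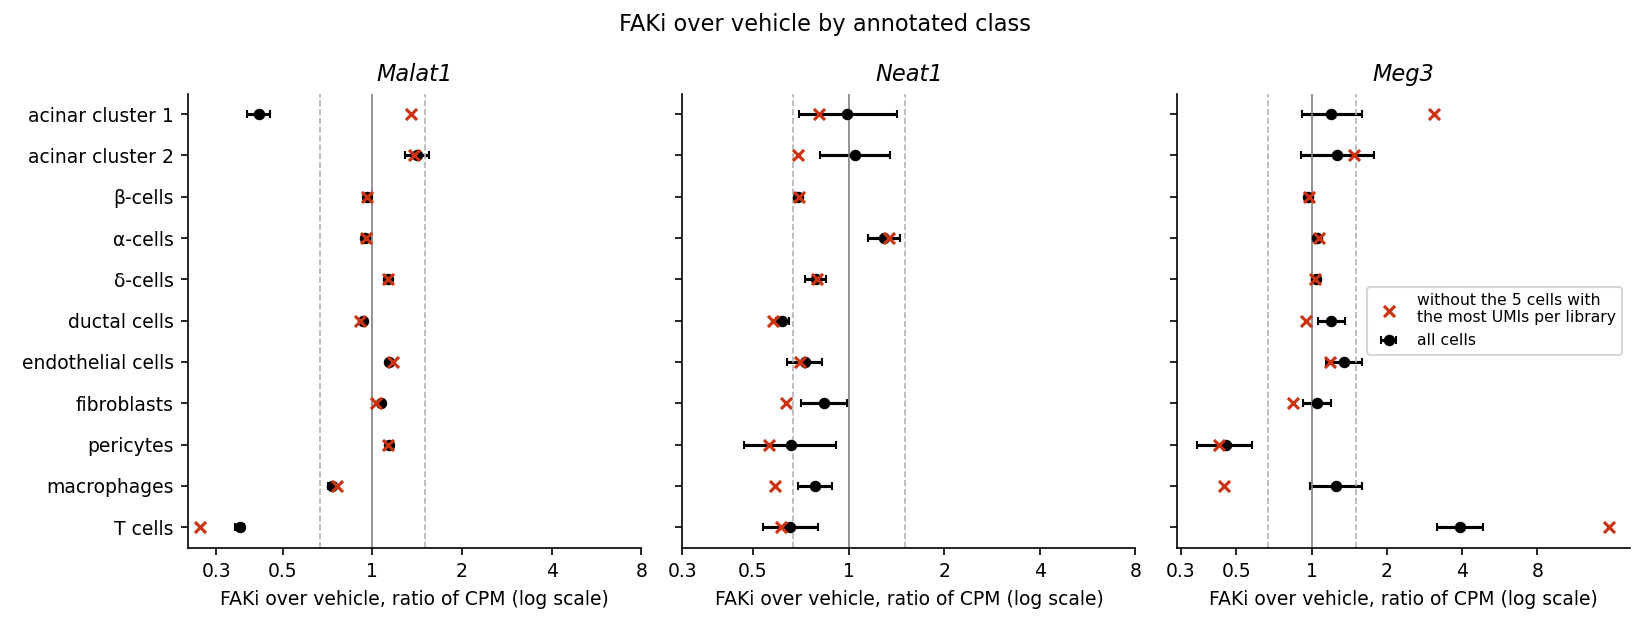
Ratio of CPM with FAKi to that in the vehicle library (x axis, log scale) for each member in 11 classes (y axis), with black points and 95% counting intervals for all cells and red crosses for the ratio without the 5 cells with the most UMIs in each library. Malat1 in acinar cluster 1 moves from 0.416 to 1.35 without those cells, and most Neat1 points lie below 1.

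The deposited clusters split the β-cells into clusters 0, 1 and 10. Cluster 1 was lower than cluster 0 for each member in both libraries, with Malat1 at 4736 against 8200 CPM (0.578) with vehicle and 3824 against 8452 CPM (0.452) with FAKi. Meg3 was 0.726 and 0.682, and Neat1 0.681 and 0.541. Over all genes 3.68% and 2.71% were lower past 1.5-fold, which Malat1 was in both libraries and Neat1 with FAKi. Cluster 10 was higher than cluster 0 for Malat1 (1.39 and 1.43) and Meg3 (1.38 and 1.59), with Meg3 past 1.5-fold in the FAKi library, as were 10.8% (vehicle) and 13% (FAKi) of all genes. Neat1 in cluster 10 was 0.813 with vehicle and 1.27 with FAKi. The clusters were made from these cells' genes, so the ratios are a description. Cluster 1 was also shallower than cluster 0, with medians of 20070 against 34677 UMIs with vehicle and 16908 against 34237 with FAKi. It held 28 vehicle and 23 FAKi cells without a Malat1 UMI, where cluster 0 held 0 in either library. The part of depth in these ratios was not tested.

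The genes of the bodies that these RNAs belong to were counted in the same comparisons. Of 12 paraspeckle protein genes, 8 were lower past 1.5-fold in shallow vehicle cells and 11 in shallow FAKi cells, and 0 were higher. Hnrnpk, whose protein favours the long Neat1 isoform, stood at 0.534 and 0.560, and Sfpq at 0.752 and 0.254. Of 15 genes of nuclear speckle and splicing proteins, 9 and 15 were lower past 1.5-fold. Rbm39 stood at 0.719, not past that fold, and at 0.328. Srrm2, a core protein of speckles, stood at 0.543 and 0.347. The median difference of log2(CPM + 1) was -0.80 and -1.20 for the paraspeckle genes, -0.87 and -1.37 for the speckle genes, and -0.95 and -1.05 over all genes. Over all genes, 74.1% and 78.8% were lower past the fold.

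Of 9 other nuclear long noncoding RNAs tested, 5 were lower past 1.5-fold in shallow cells of each library. Only 1, Gm42418, was higher past that fold, at 3.20 and 5.86. Gm42418 overlaps a ribosomal RNA gene, and it stood at 28615 CPM in shallow FAKi cells. Kcnq1ot1, the imprinted antisense RNA of Kcnq1, was at 0.349 and 0.0867, and Snhg11 at 0.558 and 0.199. In the Dlk1-Dio3 locus, Rian was at 0.309 and 0.360 and Mirg at 0.357 and 0.106. Of 11 snoRNA host and other mostly cytoplasmic noncoding RNAs, 4 and 7 were lower past 1.5-fold. Gas5 stood at 0.6998, not past that fold, and at 0.646. Of 3 messenger RNAs known to be held in nuclei, 2 were tested, and Mlxipl stood at 0.268 and 0.419.

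In β-cells between treatments, none of the 12 paraspeckle genes and none of the 15 speckle genes passed 1.5-fold, where 1.21% of all genes were higher and 3.1% lower. Hnrnpk was 0.978-fold and Sfpq 0.957-fold with FAKi, beside Neat1 at 0.695. Snhg11, another long noncoding RNA, was 0.534-fold, 84.8 CPM with vehicle and 45.3 CPM with FAKi. Rian was 0.989-fold and Mirg 1.34-fold, while Dlk1, a protein-coding gene of the locus, was 0.15 CPM with vehicle and 3.20 CPM with FAKi, from 5 and 123 UMIs.

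Between the acinar clusters, few of these genes had enough UMIs. Gm42418 was higher in cluster 1 at 2.56 and 2.58, and all 4 speckle genes tested with FAKi were higher past 1.5-fold, with Srsf7 at 3.34 and Rbm39 at 1.75, where 41.6% of all genes were higher. Gm26917, another nuclear noncoding RNA, stood at 0.687 with vehicle (0.397 to 1.13) and 0.561 with FAKi (0.349 to 0.874). Hnrnpk, the 1 paraspeckle gene tested there, was at 2.25.

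The share of mitochondrial UMIs went with the members' levels in one respect. Cells with under 2% mitochondrial UMIs, 205 in the vehicle and 177 with FAKi, held the least Malat1, at 7755 and 2713 CPM, and were 74.1% and 71.2% positive. Cells with 4 to 6% held 13991 and 13533 CPM. Acinar cluster 2, the lowest class for each member, had a median mitochondrial share of 1.04% and 0.855% and gave 67 of the 205 and 89 of the 177 cells in this bin. In β-cells, Malat1 in the bin was 8689 CPM with vehicle, where the bin of 4 to 6% held 7627 CPM, and 4748 CPM with FAKi, where it held 7932 CPM. The part of this class in the values of the bin was not tested. Neat1 and Meg3 were also lowest in the bin under 2%, Neat1 at 188 and 147 CPM and Meg3 at 531 and 240 CPM.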

How the data were processed

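Single cells of isolated islets were measured with a 3′ droplet kit (Chromium 3′ v3.1). Per the labels and the study's methods, the authors aligned to mm10 and counted with Cell Ranger (its version is not given here), set filters with Seurat 3.1, normalized with SCRAN, and clustered cells by the Louvain method after integration with scanorama. The deposited counts are whole UMIs per gene and cell, and the sums of all 6959 cells equal the deposited totals. The deposited annotation gives each cell's class, cluster, library, and percent of mitochondrial counts. No column of values was left out (0).

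Counts of a class were added up within each library and given per 1000000 UMIs of that class (CPM). Intervals (95%) are exact Poisson for levels, exact conditional binomial for ratios and Clopper-Pearson for shares of cells, and cover counting error only. Scrublet in scanpy 1.11.5 called 1.8% and 1.79% of cells doublets, which were kept. Shares over all genes include those that reached 100 UMIs when both sides were added. Python 3.11.15, scipy 1.17.1 and pandas 2.3.3 were used, and the ratio was tested on simulated data.

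The members and gene lists were chosen with earlier results of these data known. Named genes were the members, up to 4 genes per list with the most UMIs, and the 5 genes most correlated with each member. The split at 1% Malat1, the limit of 4000 detected genes and the alternatives without the 5 highest cells or the acinar clusters were chosen after seeing the data.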

Additional observations from a re-analysis of the deposited data

Results flagged for a closer look

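Meg3 differed between FAKi and vehicle in opposite directions in 2 classes. In pericytes the FAKi library held 0.453-fold the vehicle level, 294 against 649 CPM, and in T cells it held 3.92-fold, 516 against 132 CPM. The difference between the classes was not tested, since each treatment had 1 library. The 14 FAKi T cells with 4000 or more detected genes held 293 of the 296 Meg3 UMIs of that class, with β-cell markers at 49.3% of their UMIs. The part of those cells in the T-cell value was not tested beyond the value of 3.05 in cells under 4000 detected genes.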

How the results depend on the processing

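No paired analysis was possible because each treatment has 1 library and the shared numbers 1 to 4 name sequencing lanes, so that no test was run. Values are limited by the few cells and UMIs of the acinar clusters and of the shallow cells, and leaving out called doublets moved none of the values below. The cause of the moves was not tested. The limits of 1000 UMIs, 20 genes and 5% were planned, and those on the 5 highest cells, the acinar clusters and detected genes within a comparison were added after seeing the data.

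For acinar cluster 1 over cluster 2, the mean of each cell's CPM gave 6.16 and 2.53 for Malat1 (vehicle and FAKi) and 2.24 and 2.77 for Meg3. Without the 20 most abundant genes Malat1 was 6.34 and 2.08, and in cells under 5% mitochondrial counts 6.83 with vehicle. Thinned cells gave 3.38 for Malat1 and 4.93 for Neat1 with FAKi, and 1.75 for Meg3 with vehicle. Without the 5 highest cells Malat1 was 2.91 and 2.84, Neat1 with FAKi 1.95 and Meg3 with vehicle 2.09. In cells under 1000 detected genes alone Malat1 was 15.2 and 5.52, Neat1 with FAKi 4.22, and Meg3 2.27 and 2.71.

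For shallow over deep cells, Malat1 with vehicle turned to 1.23 at a limit of 2000 detected genes and to 1.48 without the acinar clusters. Its other values were 0.711 as a mean over cells, 0.524 without the 20 genes, 0.516 under 5% mitochondrial counts, 0.763 thinned, 0.208 at a limit of 500 genes and 0.464 without the 5 cells. In the same order, with FAKi, Malat1 was 0.168, 0.126, 0.132, 0.189, 0.0498 and 0.120, and 0.706 at 2000 genes and 0.427 without the acinar clusters. Neat1 with vehicle was 0.352 as a mean, 0.231 without the 20 genes, 0.144 and 0.546 at 500 and 2000 genes, 0.205 without the 5 cells and 0.404 without the acinar clusters. Neat1 with FAKi was 0.256 without the 20 genes, 0.460 thinned, 0.108 and 0.585 at 500 and 2000 genes and 0.171 without the 5 cells. Meg3 with vehicle was 0.602 as a mean, 0.286 without the 20 genes, 0.306 under 5% mitochondrial counts, 0.540 thinned, 0.114 and 0.523 at 500 and 2000 genes, 0.199 without the 5 cells and 0.801 without the acinar clusters. Meg3 with FAKi was 0.282, 0.179 and 0.281 as a mean, without the 20 genes and thinned, 0.128 and 0.493 at 500 and 2000 genes, 0.192 without the 5 cells and 0.494 without the acinar clusters.

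Between treatments, 1 class instead of 2 passed 1.5-fold for Malat1 without the 5 cells or in cells with 1000 or more detected genes, and 3 did with the mean over cells or thinned, as macrophages then passed it (0.543 and 0.610). For Neat1, instead of 3, there was 1 with the mean over cells or without the 20 genes, and 5 without the 5 cells. For Meg3, instead of 2, there were 5 with the mean or thinned and 4 without the 5 cells. Malat1 in acinar cluster 1 turned to 1.35 without the 5 cells. Neat1 in T cells turned to 1.39 with the mean, 1.09 without the 20 genes, 2.04 thinned and 1.28 under 4000 detected genes. With a minimum of 20 in place of 100 UMIs, 54.4% of genes were higher in acinar cluster 1 with vehicle, instead of 32.8%.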
